A study of Mus musculus with 25 samples.

Results

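The comparison set GPx4+/- mice on the high fat high sucrose diet (GPx4+/- HFHS) against wild type mice on normal chow (WT CNTL), so that the 2 groups differed in both genotype and diet. The 10 mice, 5 in each group, were taken from 25 sequenced mice by their sample labels (genotype GPX with HFHS diet, and WT untreated), and their columns were found by library name in the header of the transcript table. GPx4+/- mice carry 1 disrupted germline allele of Gpx4, so the loss is partial and present in every cell type. They were kept by backcross to C57BL6/J, and male GPx4+/- and WT littermates started the diets at 8 to 10 weeks of age and stayed on them for 16 weeks. The HFHS diet gave 35.5% of its energy as lard-based fat and 38% as sucrose and also held added cholesterol, and the control diet gave 6% of its energy as fat, so the diets differed in several components together. None of these 10 mice was labelled as given carnosine. Before tissue collection the mice were fasted and then given dextrose or saline, and which mouse received which is not in the labels used here. The extraction protocol in the labels names left ventricular tissue, and the source label says heart. The 5 GPx4+/- CNTL and 5 WT HFHS mice entered the same model and were used to divide the combined difference into a diet and a genotype share.

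Glutathione peroxidase 4 is a selenoenzyme that uses glutathione to reduce lipid hydroperoxides inside membranes, and its loss permits ferroptosis, an iron-dependent cell death driven by lipid peroxidation. The heart takes most of its energy from fatty acids, and dietary fat raises the supply of lipids that can be oxidized for fuel or peroxidized. Fatty acids also bind PPAR alpha, a nuclear receptor that controls genes for fat uptake and mitochondrial oxidation.

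The values were TPM, a relative abundance corrected for transcript length, which were summed per gene and scaled library by library with factors of 0.885 to 1.05. These libraries held between 11690 and 12199 genes at 1 TPM or more, and mitochondrial transcripts took between 33.0% and 48.7% of the TPM. Read depth cannot be recovered from TPM, and the errors given are those between mice. The summed level of 10 ventricular cardiomyocyte markers was 60290 to 70930 scaled TPM in WT CNTL and 59150 to 66070 in GPx4+/- HFHS. No tissue of other origin was set beside these sums, so they do not test the stated ventricular origin. Some libraries stood apart for genes of other tissue. The atrial markers summed to 6057 in WT CNTL replicate 3 and 3856 in GPx4+/- HFHS replicate 4, against 675 to 898 in the other 8 mice. Alb, which encodes the liver protein albumin, was at 40.8 in GPx4+/- HFHS replicate 1 and 23.0 in replicate 3, against 0.0800 to 3.84 in the others. Among the mice used for the division by diet and genotype, GPx4+/- CNTL replicate 1 had atrial markers at 9096 and GPx4+/- CNTL replicate 2 had Alb at 736. The part of this tissue in the results was not tested beyond the fits without the mice of the compared groups. The samples are bulk tissue, in which fewer cells of a type and less RNA per cell cannot be told apart.

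**Figure D1:**
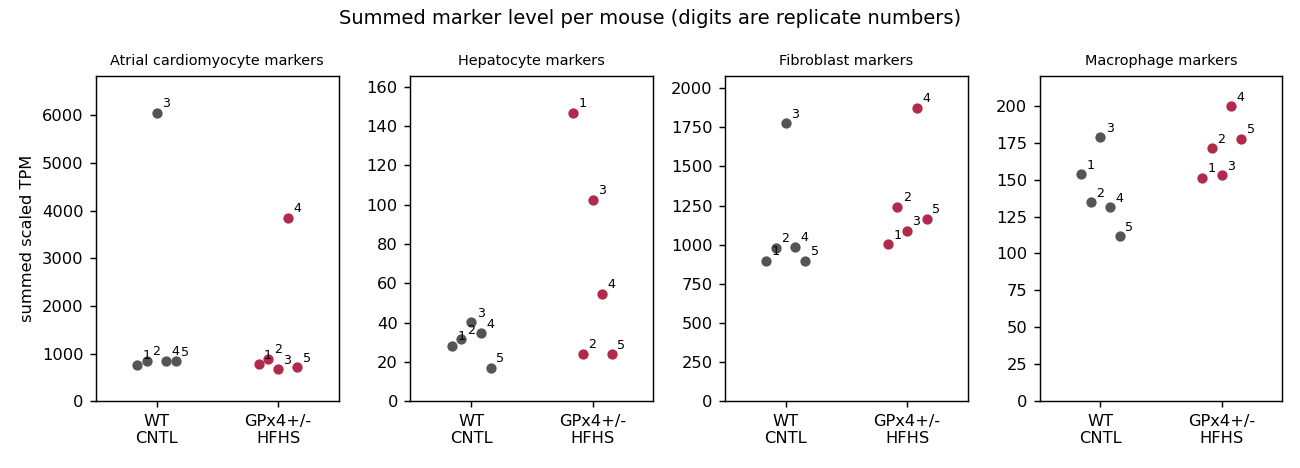
Summed scaled TPM of the atrial cardiomyocyte, hepatocyte, fibroblast and macrophage marker genes in each of the 5 WT CNTL and 5 GPx4+/- HFHS mice, with each point labeled by its replicate number and each vertical axis starting at 0. WT CNTL replicate 3 and GPx4+/- HFHS replicate 4 hold the highest atrial and fibroblast sums of their groups, and GPx4+/- HFHS replicates 1 and 3 the highest hepatocyte sums.

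Gpx4 was lower in every GPx4+/- HFHS mouse than in every WT CNTL mouse. Its scaled TPM in WT CNTL replicates 1 to 5 was 695, 709, 591, 692 and 666 (670.4 ± 47.2, SD, n = 5). In GPx4+/- HFHS it was 383, 324, 345, 363 and 344 (351.8 ± 22.0, SD, n = 5), which is 52.5% of the WT CNTL mean. The groups did not overlap (two-sided exact permutation p = 0.00794, the smallest that 5 mice against 5 allow), and the log2 fold change was -0.93 (standard error, SE, 0.087; limma adjusted p = 9.11e-06). Of the 2 transcripts that carried most of the signal, Gpx4-202 fell from 545 ± 40.0 to 293 ± 21.5 (SD, n = 5; limma adjusted p = 0.000732 over transcripts), and Gpx4-207 was at 119 ± 36.8 and 55.7 ± 17.5 (SD, n = 5; limma adjusted p = 0.135). Of the 4 other glutathione peroxidases tested, Gpx1, Gpx3, Gpx7 and Gpx8, none passed the test, and their log2 fold changes ran from -0.08 to 0.08.

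Across the transcriptome, 141 of 11984 genes had an adjusted p under 0.05 in limma, which is 1.18%. Of these, 75 were higher in GPx4+/- HFHS (0.626% of the genes tested) and 66 were lower (0.551%). At an unadjusted p under 0.05 there were 1743 genes (14.5%), 875 higher (7.3%) and 868 lower (7.24%). The changes were small, with a median absolute log2 fold change of 0.42 over the 141 genes against 0.088 over all genes tested, and 9 genes changed by at least 1 on the log2 scale. In 118 of the 141 the values of the 2 groups did not overlap, 65 higher and 53 lower. Over all genes tested the groups did not overlap in 485 (4.05%), 275 higher (2.29%) and 210 lower (1.75%). The typical spread between mice was similar in the groups, with a median SD over genes of 0.125 (log2) in WT CNTL and 0.134 in GPx4+/- HFHS.

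**Figure D2:**
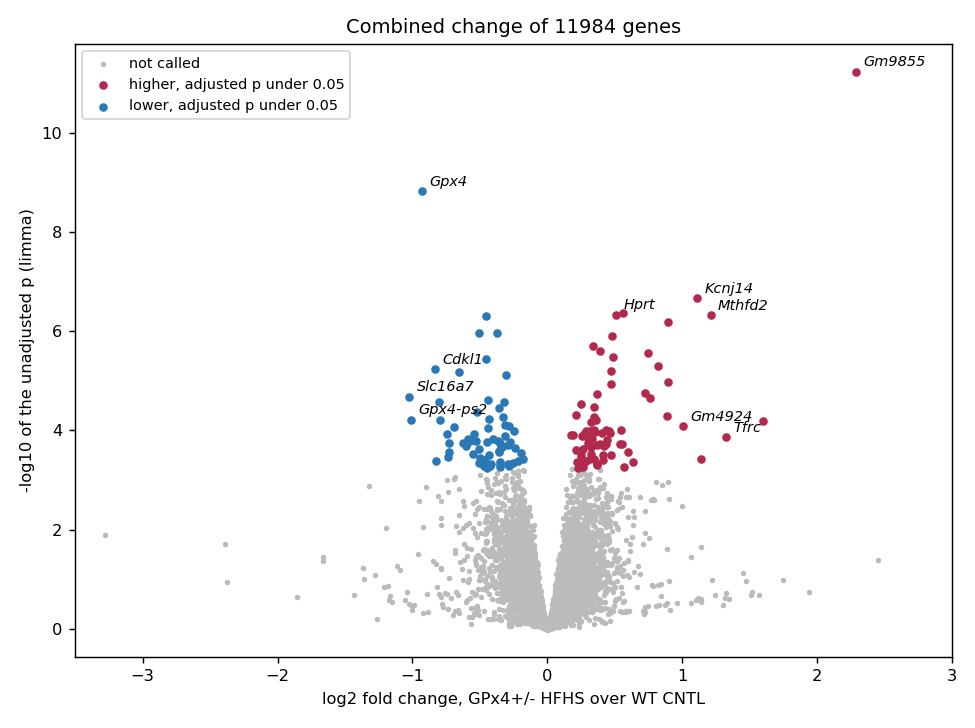
Each point is 1 of the 11984 genes tested, with its log2 fold change of GPx4+/- HFHS over WT CNTL on the horizontal axis and the negative log10 of its unadjusted limma p on the vertical axis. The 75 genes called higher are red and the 66 called lower are blue, and Gm9855 and Gpx4 had the smallest p of each direction.

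On TPM as deposited, without the scaling, 19 genes were higher and 70 lower (21.3% higher, against 53.2% with it), with the median of all genes at -0.07. The number called rested on single mice. It was 71 without WT CNTL replicate 2, 48 without replicate 4 and 67 without replicate 5, and 55, 62 and 55 without GPx4+/- HFHS replicates 1, 3 and 5. Without both mice high in atrial genes it was 71, and without both mice high in Alb it was 33. Of the named genes called in every fit without 1 mouse, Slc16a7, Rragb, Tob1 and Scn4b lost their calls without both mice high in Alb. In each of these fits all 141 genes kept the direction of their difference. Because the genes were chosen on the same mice, a change of direction was unlikely from the start. Over the 10 fits that each leave out 1 mouse, 35 genes passed the test every time, 20 higher and 15 lower. These were Gm9855, Kcnj14, Dbi, Hprt, Mthfd2, Crybb1, Nacc2, Aplp2, P4ha2, Frmpd3, Vwa8, Nkain1, Lgals1, Prkab2, Igsf1, Scn4b, Capn3, Daam1, Dhdds and Slc30a9 among the higher, and Gpx4, Sra1, Tdg, Rtl8b, Ddt, Cdkl1, Gcat, Rbmx, Slc16a7, 1190007I07Rik, Rragb, Tob1, Gpx4-ps2, Mapk1ip1 and Zrsr1 among the lower.

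The combined difference of a gene is the sum of its mean diet difference (HFHS over CNTL, averaged over the genotypes) and its mean genotype difference (GPx4+/- over WT, averaged over the diets). All 20 mice of the model contribute to both, and these terms share mice with the combined comparison, so they are given as its division and not as separate evidence. In 130 of the 141 genes (92.2%) the diet difference was the larger in size, as it was in 68.0% of all genes tested. The median absolute diet difference over the 141 was 0.34 on the log2 scale and the median absolute genotype difference 0.064. The diet difference had the sign of the sum in 135 genes and the genotype difference in 101. In 11 genes the genotype difference was the larger: Gm9855, Gpx4, Hprt, Tdg, 1190007I07Rik, Gpx4-ps2, Gm4924, Insig2, 1700037H04Rik, Tnfrsf21 and Tor1a. Of these, 6 lie on chromosome 10, the chromosome of Gpx4, which holds 578 of the 11984 genes tested. The 6 include Gpx4 with its pseudogene Gpx4-ps2 and Tdg with its pseudogene Gm9855, which share sequence and are not independent genes.

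**Figure D3:**
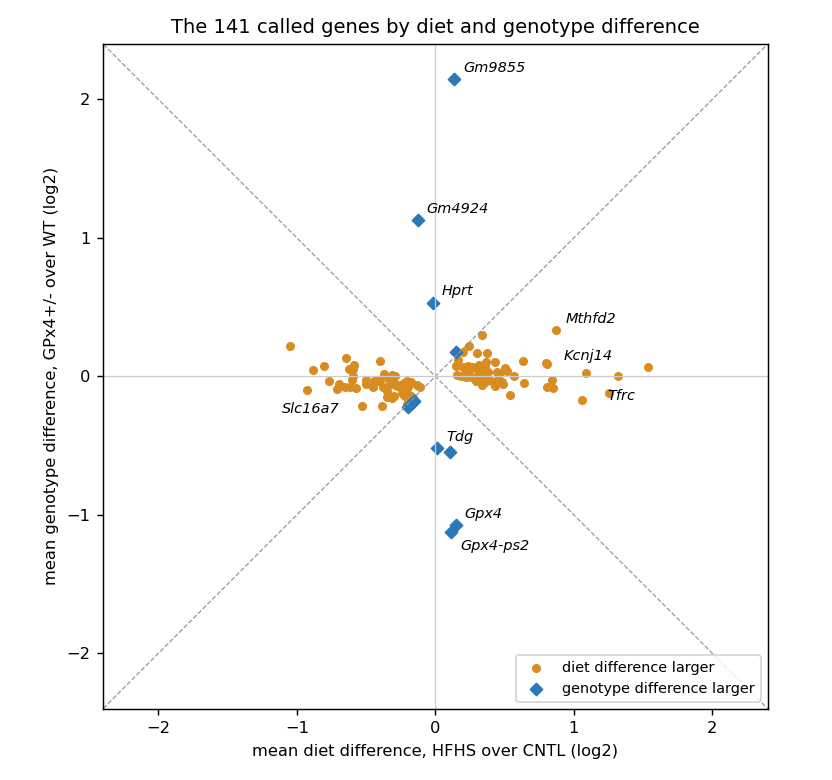
The 141 genes called in the combined comparison, with the mean diet difference on the horizontal axis and the mean genotype difference on the vertical axis, both as log2. Circles mark the 130 genes in which the diet difference was the larger and diamonds the 11 in which the genotype difference was. The dashed lines mark equal size, and the circles lie along the horizontal axis.

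Among the genes that followed genotype, Gm9855 had the smallest p of all genes. Gm9855 (chromosome 10 from 42054113 to 42055306, GRCm38) is a processed pseudogene copied from Tdg, whose own gene lies at 82629828 to 82650799 of the same chromosome and encodes thymine DNA glycosylase, a DNA repair enzyme. The Gm9855 transcript and the coding sequence of Tdg-201 align over 1191 bases with 9 mismatches. The stretch of 90 bases that holds the most of them is shown, with the mismatched bases in capitals, because within the aligned bases reads that cover a mismatch are those that can separate the genes. The untranslated parts of Tdg transcripts were not in this alignment. Both stretches run from base 1012 to 1101, counted from the start of the Tdg coding sequence and of the Gm9855 transcript in GENCODE.
Tdg: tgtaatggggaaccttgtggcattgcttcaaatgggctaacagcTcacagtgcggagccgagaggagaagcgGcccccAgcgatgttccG
Gm9855: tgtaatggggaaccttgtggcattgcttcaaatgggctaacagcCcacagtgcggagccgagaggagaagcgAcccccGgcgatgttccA

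Gm9855 was at 0.0922, 0.140, 0.230, 0.207 and 0.0970 scaled TPM in WT CNTL and at 2.69, 2.80, 2.78, 2.37 and 2.74 in GPx4+/- HFHS. Its log2 fold change was 2.28 (SE 0.16; limma adjusted p = 7.17e-08). Tdg went the other way, at 7.10, 8.14, 7.76, 6.99 and 7.25 in WT CNTL and 4.65, 5.63, 4.38, 5.39 and 5.55 in GPx4+/- HFHS (log2 fold change -0.50, SE 0.072; limma adjusted p = 0.00130). The sum of both genes was 7.6 ± 0.501 in the WT CNTL mice and 7.79 ± 0.559 in the GPx4+/- HFHS mice (SD, n = 5), a difference of 0.034 on the log2 scale. The levels of this pair therefore are uncertain one by one. Gpx4-ps2, a pseudogene of Gpx4, was at 2.19 ± 0.685 in the WT mice on chow and 0.839 ± 0.328 in the GPx4+/- HFHS mice (SD, n = 5). Its sequence was not aligned with that of Gpx4, so whether its reads can be separated from those of Gpx4 was not tested, and its level is uncertain too.

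Hprt, which encodes a purine salvage enzyme and lies on chromosome X, was at 34.6, 35.9, 34.9, 32.8 and 30.9 in WT CNTL and 41.8, 56.3, 45.1, 47.8 and 52.1 in GPx4+/- HFHS. The groups did not overlap (log2 fold change 0.51, SE 0.069; limma adjusted p = 0.000837). Nearly all of the difference was between genotypes (0.53 against -0.02 for diet). Further genes of chromosome 10 near Tdg also differed mainly between genotypes. The uncharacterized 1190007I07Rik fell from 17.7 ± 1.88 to 12.9 ± 1.04 (SD, n = 5) and Gm4924 rose from 0.611 ± 0.176 to 1.79 ± 0.690 (SD, n = 5), with log2 fold changes of -0.44 and 1.00 (adjusted p = 0.0105 and 0.0211 from limma). The call on Gm4924 was lost without WT CNTL replicate 4 or GPx4+/- HFHS replicate 5 (highest adjusted p = 0.0604 from limma).

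**Figure D4:**
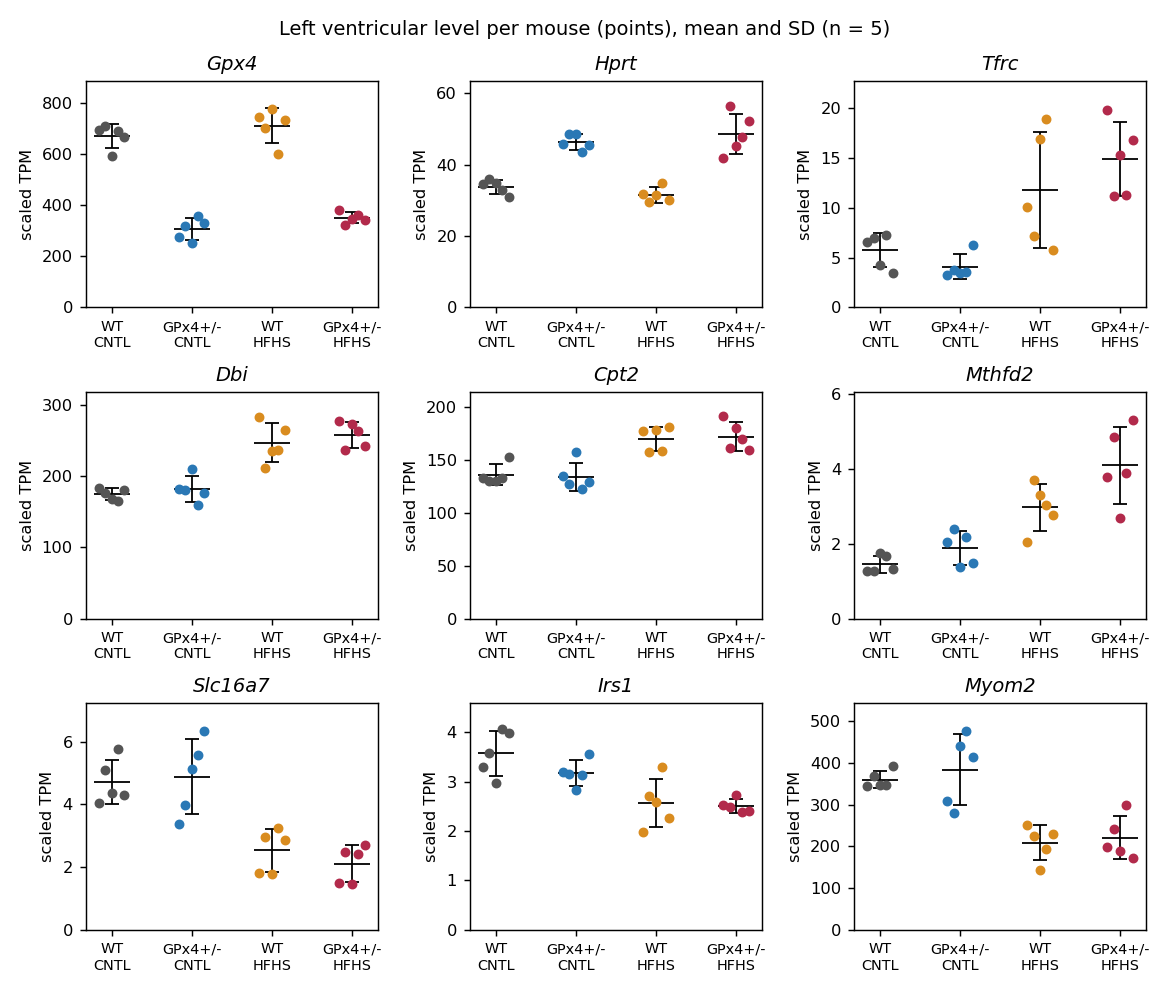
Scaled TPM of Gpx4, Hprt, Tfrc, Dbi, Cpt2, Mthfd2, Slc16a7, Irs1 and Myom2 in the 4 groups of the model, with 1 point per mouse, a horizontal bar for the mean and error bars for the SD (n = 5). Gpx4 and Hprt separate by genotype, and the other 7 genes differ mainly between diets.

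Whether the combined difference departs from the sum of the single-factor differences was tested as the diet difference in GPx4+/- minus that in WT. No gene passed this test in limma (0 of 11984, smallest adjusted p = 0.482), and 856 genes (7.14%) had an unadjusted p under 0.05. The 95% interval for the departure had a median half-width of 0.25 on the log2 scale over the 141 called genes. This interval is not adjusted for the number of genes tested, and departures well above it also missed the adjusted test. The interval held 0 in 131 of the 141. Tnnt1, the slow skeletal troponin T, differed by -0.35 between diets in WT and by -0.90 in GPx4+/- (departure -0.55, unadjusted p = 0.00498, adjusted p = 0.664 from limma), and Tfrc by 0.89 and 1.75 (departure 0.85, unadjusted p = 0.0431, adjusted p = 0.691 from limma).

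The 6 genes with the smallest p for departure were 0610009B22Rik, Mutyh, Akap9, Mrtfa, Cab39 and Vps8, and none of them was called in the combined comparison. None of the 6 passed the test of departure either, and since they were chosen by that test their values are a description. For Mrtfa, a coactivator of serum response factor that responds to actin, the log2 difference from WT CNTL was 0.46 with the genotype alone, 0.42 with the diet alone and 0.26 with both. For Mutyh, a DNA glycosylase that removes adenine opposite oxidized guanine, these values were 0.45, 0.16 and -0.17. For Akap9, a scaffold for protein kinase A, they were 0.13, 0.25 and -0.04. These comparisons share the WT CNTL mice.

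No list held more called genes than fatty acid oxidation and ketone use, and the list of PPAR alpha targets held as many. In the list of fatty acid oxidation and ketone use, 4 of 29 tested genes rose and none fell (13.8% called, against 1.18% of all genes), and its median log2 fold change was 0.13 against 0.00 over all genes. A further 9 members were higher and 2 lower at an unadjusted p under 0.05 only. The list of PPAR alpha targets, which shares members with it, also had 4 of 37 higher. Its count was 0 without WT CNTL replicate 4, 1 without GPx4+/- HFHS replicate 1, 2 without replicate 3, 7 without replicate 2 and 0 without either pair of mice that stood apart, and 8 with quantile normalization and 11 with array weights. Its median was 0.10, or 0.03 on TPM as deposited. Fatty acid uptake and lipid droplets had 2 of 35 higher, with a median of -0.03 that changed sign with array weights and with some mice left out.

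Called members included Cpt2, Decr1 and Acads. Cpt2, which releases fatty acids as acyl-CoA inside mitochondria, rose from 136 ± 9.77 to 172 ± 13.5 (SD, n = 5), with WT CNTL at 133, 130, 130, 133 and 153 and GPx4+/- HFHS at 191, 161, 180, 170 and 159. Decr1, the reductase needed for unsaturated fatty acids, rose from 174 ± 11.7 to 239 ± 14.0, and Acads, the short-chain acyl-CoA dehydrogenase, from 175 ± 16.0 to 220 ± 18.2 (SD, n = 5). The log2 fold changes were 0.34, 0.46 and 0.33 (standard errors 0.070, 0.094 and 0.070; limma adjusted p = 0.0221, 0.0221 and 0.0246). The groups did not overlap in Cpt2 and Decr1 and did in Acads, and the genotype difference of the 3 lay between -0.03 and 0.01. Not every gene of the pathway was higher: Cpt1a, the liver-type transferase at the entry step, was at 25.5 ± 2.37 and 19.3 ± 2.54 (SD, n = 5; adjusted p = 0.0741 from limma), and Oxct1, which activates ketone bodies for use, at 636 ± 62.7 and 498 ± 45.2 (SD, n = 5; adjusted p = 0.0907 from limma). Acads, Cpt1a and Oxct1 were named after their values were seen. The count of 4 in the oxidation list was 2 on TPM as deposited, where the median was 0.06, and 8 with quantile normalization. It was 2 without WT CNTL replicate 2, 0 without WT CNTL replicate 4, 1 without GPx4+/- HFHS replicate 1, 1 without GPx4+/- HFHS replicate 3 and 0 without either pair of mice that stood apart, while the median of the list stayed between 0.09 and 0.16 over these fits without mice and those without any other single mouse.

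The 2 called genes of fatty acid uptake and lipid droplets were Dbi and Fabp3, and 16 of the 35 members had positive and 19 negative log2 fold changes. Dbi, the acyl-CoA binding protein, was at 183, 177, 168, 165 and 181 in WT CNTL and 277, 237, 273, 264 and 242 in GPx4+/- HFHS, with no overlap (log2 fold change 0.56, SE 0.075; limma adjusted p = 0.000837). Fabp3, the heart fatty acid binding protein and among the most abundant transcripts of this tissue, rose from 4920 ± 257 to 5940 ± 360 (SD, n = 5; log2 fold change 0.27, adjusted p = 0.0227 from limma), a call that was lost without WT CNTL replicate 4 or GPx4+/- HFHS replicate 1. Ephx2, the soluble epoxide hydrolase of lipid metabolism, went from 175 ± 13.0 to 232 ± 15.6 (SD, n = 5; log2 fold change 0.41, adjusted p = 0.0347 from limma); it was chosen after its values were seen. Other PPAR alpha targets varied widely within the GPx4+/- HFHS group. Pdk4, a kinase that inhibits pyruvate dehydrogenase, was at 367, 701, 146, 209 and 157 there and at 565, 342, 561, 345 and 572 in WT CNTL. Ucp3, a mitochondrial carrier, was at 48.3, 75.6, 23.6, 25.4 and 32.1 against 77.8, 57.7, 64.4, 54.4 and 71.3. These genes were chosen after their values were seen. In both GPx4+/- HFHS replicate 2 was the highest of its group, and the groups overlapped (adjusted p = 0.344 and 0.164 from limma).

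Promoters of the called fat genes were read to describe what these genes share in sequence. RefSeq promoters (GRCm38.p6) were matched by symbol for Cpt2, Acads, Fabp3 and Dbi. The nuclear receptor half-site AGGTCA, or its reverse complement TGACCT, was in the 250 bases before the start of 0 of these 4 genes. It was in 12.9% of the tested genes with a promoter, in 14.7% of the called ones and in 14.0% of all 32851 promoters. At such shares 4 genes are too few to tell a lack of the half-site. The GC box GGGCGG, or CCGCCC, was in Cpt2 and Acads, and in 64.6% of the tested genes with a promoter. The Cpt2 promoter is shown as the example of a gene that rose (chr4:107923590-107923839, minus strand, GC boxes in capitals at 65 and 38 bases before the start). Mthfd2, a gene of folate metabolism that also rose, is shown for comparison as the called gene with 3 copies of the CCAAT box, CCAAT or ATTGG, at 96, 47 and 22 bases before the start (chr6:83317605-83317854, minus strand, boxes in capitals). A CCAAT box was in 40.3% of the tested genes with a promoter and in 48.6% of the called ones.
Cpt2 promoter: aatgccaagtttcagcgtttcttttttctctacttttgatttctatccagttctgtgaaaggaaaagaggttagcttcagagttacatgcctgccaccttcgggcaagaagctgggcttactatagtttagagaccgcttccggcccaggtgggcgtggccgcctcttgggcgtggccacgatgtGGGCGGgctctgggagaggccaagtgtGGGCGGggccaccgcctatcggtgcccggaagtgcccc
Mthfd2 promoter: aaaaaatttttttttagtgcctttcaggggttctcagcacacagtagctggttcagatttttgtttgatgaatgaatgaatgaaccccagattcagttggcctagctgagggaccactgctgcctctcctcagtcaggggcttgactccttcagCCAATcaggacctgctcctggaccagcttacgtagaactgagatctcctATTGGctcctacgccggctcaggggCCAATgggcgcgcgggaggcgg

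Lipid synthesis and insulin signaling held called genes in the lower direction. Of 38 sterol and fatty acid synthesis genes tested, 1 rose and 2 fell (7.89% called, against 1.18% of all genes). Acaca, the acetyl-CoA carboxylase that commits carbon to fat synthesis, was at 4.09, 4.49, 5.15, 4.28 and 4.79 in WT CNTL and 3.44, 3.06, 3.31, 3.27 and 3.01 in GPx4+/- HFHS, without overlap (log2 fold change -0.44, SE 0.090; limma adjusted p = 0.0219). Insig2, which retains the sterol sensor complex in the endoplasmic reticulum, fell from 35.1 ± 2.93 to 27.7 ± 1.84 (SD, n = 5; log2 fold change -0.33, adjusted p = 0.0276 from limma), with diet and genotype differences of -0.15 and -0.18. Me1, the malic enzyme that supplies NADPH, rose from 68.8 ± 3.88 to 87.8 ± 4.43 (SD, n = 5; log2 fold change 0.35, adjusted p = 0.0222 from limma). Acaca lost its call without WT CNTL replicate 5 or GPx4+/- HFHS replicate 5, Me1 in 4 and Insig2 in 7 of the 10 fits without 1 mouse.

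Of 38 insulin and IGF signaling genes, 2 fell and none rose (5.26% called, against 1.18% of all genes), and 17 had positive and 21 negative log2 fold changes. Akt1, a kinase downstream of the insulin receptor, was at 98.6, 90.9, 83.8, 90.5 and 93.5 in WT CNTL and 72.1, 68.5, 74.3, 73.9 and 70.4 in GPx4+/- HFHS. Irs1, the adaptor bound by that receptor, was at 3.30, 3.58, 2.98, 4.07 and 3.99 against 2.53, 2.48, 2.73, 2.39 and 2.41. Neither gene overlapped between the groups (log2 fold changes -0.35 and -0.44, adjusted p = 0.0273 and 0.0347 from limma), and their genotype differences were -0.05 and -0.08. Their calls were the less stable ones, kept in 2 and 1 of the 10 fits without 1 mouse, with adjusted p up to 0.0725 and 0.106 in limma. Slc16a7, a transporter of lactate, pyruvate and ketone bodies, had the largest decrease on the log2(value + 0.5) scale among the called protein-coding genes. It was at 4.04, 5.09, 4.37, 5.76 and 4.31 in WT CNTL and 1.48, 2.47, 1.47, 2.42 and 2.69 in GPx4+/- HFHS (log2 fold change -1.02, SE 0.18; limma adjusted p = 0.00968). It was called in every fit without 1 mouse. Without both mice high in Alb its log2 fold change was -0.78 (adjusted p = 0.10 from limma).

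Iron handling held a gene that rose and another that fell, of 27 tested (7.41% called, against 1.18% of all genes). Tfrc, the transferrin receptor through which cells take up iron, was at 6.56, 7.01, 4.30, 7.22 and 3.49 in WT CNTL and 19.8, 11.2, 15.3, 11.3 and 16.8 in GPx4+/- HFHS. Every GPx4+/- HFHS mouse was above every WT CNTL mouse (log2 fold change 1.32, SE 0.28; limma adjusted p = 0.0241). The mean diet difference was 1.32 and the mean genotype difference 0.00. The latter averages a genotype difference of -0.43 on the control diet and 0.43 on HFHS (departure adjusted p = 0.691 from limma). The call was lost without WT CNTL replicate 3 or 5 or GPx4+/- HFHS replicate 1, 3 or 5 (highest adjusted p = 0.0716 from limma), while the log2 fold change stayed between 1.18 and 1.41. Cp, the ferroxidase ceruloplasmin, fell from 38.9 ± 3.97 to 27.7 ± 5.50 (SD, n = 5; log2 fold change -0.50, adjusted p = 0.0388 from limma), a call kept in 1 of the 10 fits without 1 mouse. The ferritin genes Fth1 and Ftl1, which encode the iron storage shell, had log2 fold changes of -0.02 and -0.08 (adjusted p = 0.931 and 0.748 from limma).

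Other ferroptosis regulators and antioxidant genes gave few calls. Of 23 ferroptosis regulators, 2 fell and none rose (8.7% called, against 1.18% of all genes), and 16 had positive log2 fold changes, on a background of 49.7% positive. Those that fell were Dhodh, a mitochondrial enzyme of pyrimidine synthesis that reduces ubiquinone, at 13.5 ± 0.992 and 10.6 ± 1.63, and Chac1, which degrades glutathione, at 6.61 ± 0.828 and 4.62 ± 0.712 (SD, n = 5). Their log2 fold changes were -0.35 and -0.48 (adjusted p = 0.0421 and 0.0432 from limma), the groups overlapped in both, and the calls were kept in 3 and 2 of the 10 fits without 1 mouse. Sod3, the extracellular superoxide dismutase, rose from 12.3 ± 0.978 to 16.5 ± 1.65 (SD, n = 5; log2 fold change 0.41, adjusted p = 0.0411 from limma; kept in 2 of 10) and was the 1 call among 22 enzymes against hydrogen peroxide and superoxide and of the thioredoxin system (4.55%). The list of Nrf2 targets and glutathione synthesis had 1 call of 30, Me1 (3.33%).

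The targets of the study's qRT-PCR on these hearts were followed as a list of 12, which the study chose for this tissue and which is not independent of it. Of the 11 tested, Tfrc rose, Gpx4 fell and 9 did not pass. Catalase (Cat), which degrades hydrogen peroxide, was at 131, 129, 129, 124 and 137 in WT CNTL and 155, 183, 146, 155 and 148 in GPx4+/- HFHS, without overlap (log2 fold change 0.27, adjusted p = 0.0752 from limma). Gsta1, a glutathione transferase, was at 3.70 ± 1.42 and 7.05 ± 1.45 (SD, n = 5; log2 fold change 0.90, adjusted p = 0.103 from limma). Gsr, Txn2, Gpx1, Tgfb1 and Nos2 lay between -0.07 and 0.13 on the log2 scale, and the signs of Txn2, Tgfb1 and Nos2, like that of Fth1, changed with the scaling or the mice included. Ager was below the level tested, at 0.0837 to 0.350 scaled TPM in WT CNTL and 0.142 to 0.313 in GPx4+/- HFHS.

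Stress-response genes moved in both directions. Mthfd2, a mitochondrial enzyme of folate metabolism that is a target of ATF4 (the transcription factor of the integrated stress response), was at 1.26, 1.28, 1.74, 1.66 and 1.33 in WT CNTL and 3.77, 4.84, 2.68, 3.88 and 5.29 in GPx4+/- HFHS. Its log2 fold change was 1.21 (SE 0.16; limma adjusted p = 0.000837), without overlap and in every fit without 1 mouse, and it divided into 0.87 for diet and 0.34 for genotype. In the list of the integrated stress response, 1 of 27 genes rose and 1 fell (Chac1), 7.41% called against 1.18% of all genes. At an unadjusted p under 0.05 a further 6 members were higher, Ddit4, Asns, Psat1, Pycr1, Atf5 and Trib3, with log2 fold changes of 0.30 to 0.63, and 3 were lower, Ppp1r15a, Eif4ebp1 and Shmt2, with log2 fold changes of -0.23 to -0.12. The smallest adjusted p of these 9 was 0.0521 in limma, for the transcription factor Atf5, and they were named after their values were seen. Gcat, which breaks threonine down to glycine, fell from 11.1 ± 1.26 to 6.94 ± 1.30 (SD, n = 5; log2 fold change -0.66, adjusted p = 0.00393 from limma). Atf6, a sensor of unfolded protein in the endoplasmic reticulum, rose from 29.3 ± 2.17 to 36.7 ± 1.77, and Hspb8, a small heat shock protein, from 311 ± 19.9 to 389 ± 15.4 (SD, n = 5). Both had a log2 fold change of 0.32 (adjusted p = 0.0221 and 0.0276 from limma), and they were the only calls among 32 endoplasmic reticulum chaperones and 34 heat shock proteins, kept in 6 and 2 of the 10 fits without 1 mouse.

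The called genes of the sarcomere and Z-disc list were lower. Of 40 sarcomere and Z-disc genes, 2 fell and none rose (5.0% called, against 1.18% of all genes), 28 had a negative log2 fold change, and the median was -0.11 against 0.00 over all genes. The ventricular cardiomyocyte markers lay on the same side, 8 of 10 negative with a median of -0.12 and 0 called, and their part in the sarcomere values was not tested. Among these markers Myh6, Myl2, Myl3, Tnnt2, Tnni3 and Actc1 are sarcomere genes themselves, so the shared sign is not separate information. On TPM as deposited the sarcomere median was -0.18. The count of 2 was 4 with quantile normalization or array weights, 1 with no filter on low values, the replicate block or all 25 mice, and 0 without both mice high in Alb. Leaving out 1 mouse gave counts between 0, without GPx4+/- HFHS replicate 1, and 3, without GPx4+/- HFHS replicate 4, and each WT CNTL mouse left out gave 1. Ttn, the giant spring protein titin, was at 112, 99.7, 112, 100 and 109 in WT CNTL and 78, 88, 89.8, 78.3 and 89.6 in GPx4+/- HFHS (log2 fold change -0.33, SE 0.064; limma adjusted p = 0.0172). Myom2, the M-band protein of fast and adult fibers, was at 345, 369, 346, 348 and 392 against 198, 242, 190, 300 and 173 (log2 fold change -0.73, SE 0.17; limma adjusted p = 0.0327). The groups overlapped in neither. The highest GPx4+/- HFHS value of Myom2 was in replicate 4, the mouse with high atrial markers. Tnnt1 fell from 10.0 ± 1.59 to 6.59 ± 0.961 (SD, n = 5; log2 fold change -0.57, adjusted p = 0.0262 from limma). It was the 1 call among 25 hypertrophy and fetal cardiac genes (4.0%, against 1.18% of all genes). Without GPx4+/- HFHS replicate 1 none of the 3 passed (adjusted p = 0.0512 for Ttn, from limma), and Tnnt1 and Myom2 lost their calls in 6 and 8 of the 10 fits. Mylk4, a kinase of the myosin light chain kinase family chosen after its values were seen, went from 117 ± 21.5 to 69.7 ± 11.5 (SD, n = 5; log2 fold change -0.75, adjusted p = 0.0227 from limma). The muscle genes Capn3 and Sync, on neither list and also chosen after their values were seen, rose. Their log2 fold changes were 0.73 and 0.43 (adjusted p = 0.00866 and 0.0221 from limma).

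Of 31 potassium, sodium and chloride channel genes, 2 rose and 1 fell (9.68% called, against 1.18% of all genes). Kcnj14, an inward rectifier potassium channel, was low in every mouse but did not overlap, at 0.802, 0.421, 0.520, 0.400 and 0.784 in WT CNTL and 2.21, 1.51, 1.48, 2.10 and 1.86 in GPx4+/- HFHS (log2 fold change 1.11, SE 0.14; limma adjusted p = 0.000837). The Kcnj14 means of 0.586 in WT CNTL and 0.454 in GPx4+/- CNTL were under the filter level of 1. Kcnj14 was tested only through the HFHS groups, where it was higher, so its call and its part in the list count depend on the filter. Scn4b, a beta subunit of the sodium channel, was at 26.3, 19.9, 23.6, 20.0 and 25.8 against 48.0, 41.4, 37.6, 31.2 and 40.2 (log2 fold change 0.76, SE 0.14; limma adjusted p = 0.0101). Kcnip2, a subunit of the channel for the transient outward potassium current, fell from 75.0 ± 10.3 to 51.0 ± 5.56 (SD, n = 5; log2 fold change -0.55, adjusted p = 0.0227 from limma). WT CNTL replicate 3, the mouse with high atrial markers, was the lowest of its group for Kcnip2, at 57.4. The call on Kcnip2 was kept in 5 of the 10 fits without 1 mouse, and those on Kcnj14 and Scn4b in all 10. Without both mice high in Alb, Scn4b was at 0.69 on the log2 scale (limma adjusted p = 0.0873) and Kcnip2 also lost its call (limma adjusted p = 0.0567). Among 35 calcium cycling genes 1 rose, Calm3, a calmodulin gene (70.3 ± 1.40 and 80.1 ± 3.86, SD, n = 5; log2 fold change 0.19, adjusted p = 0.0227 from limma), kept in 5 of 10.

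Collagen chains gave no call in limma, though nearly all were higher in value. Of 20 tested, 19 had a positive log2 fold change and the median was 0.37, against 49.7% positive and a median of 0.00 over all genes. In limma 0 passed the adjusted test and 6 had an unadjusted p under 0.05, 5 higher and 1 lower. With array weights, and in the fit of the 10 compared mice alone, 1 chain was called. Col6a3 was at 5.42 ± 0.807 and 8.11 ± 1.56 (SD, n = 5; log2 fold change 0.54, adjusted p = 0.0960 from limma) without overlap, and Col1a1 at 17.6 ± 4.02 and 23.0 ± 4.83 (SD, n = 5; adjusted p = 0.486 from limma). Both chains were chosen after their values were seen. Fibroblast markers lay on the same side as the collagen chains: all 10 had positive values, with a median of 0.25 and 0 called, and 2 of them, Col1a1 and Col1a2, are also on the collagen list. Their sum was 897 to 1778 scaled TPM in WT CNTL and 1003 to 1876 in GPx4+/- HFHS, with the highest value of each group in the mouse with high atrial markers. Without these 2 mice the medians were 0.47 for collagen chains and 0.31 for fibroblast markers, and without both mice high in Alb 0.46 and 0.39. The fibroblast median was 0.42 without WT CNTL replicate 3 alone, with 1 marker called, and 0.15 without GPx4+/- HFHS replicate 4 alone. The part of fibroblast number in the collagen values was not tested. Macrophage markers had a median of 0.27, or 0.17 without WT CNTL replicate 5, with 8 of 9 positive and 0 called.

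Other matrix genes gave a few calls. P4ha2, a collagen prolyl hydroxylase subunit, was at 27.8, 28.7, 27.5, 28.1 and 27.4 in WT CNTL and 36.9, 33.9, 40.2, 35.3 and 37.9 in GPx4+/- HFHS, with little spread among the WT CNTL mice (log2 fold change 0.39, SE 0.060; limma adjusted p = 0.00234). It was the 1 call among 24 collagen hydroxylases and cross-linking oxidases (4.17%, against 1.18% of all genes). Sparcl1, a matrix glycoprotein, rose from 137 ± 10.9 to 171 ± 13.2 (SD, n = 5; log2 fold change 0.31, adjusted p = 0.0394 from limma) and was the 1 call among 49 other matrix genes (2.04%), in 2 of the 10 fits without 1 mouse. The median of these genes was 0.19, 0.08 without WT CNTL replicate 5, 0.12 on TPM as deposited and 0.30 without both mice high in Alb. Lgals1, the secreted lectin galectin-1, rose from 161 ± 9.02 to 225 ± 31.7 (SD, n = 5; log2 fold change 0.47, adjusted p = 0.00393 from limma).

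**Figure D5:**
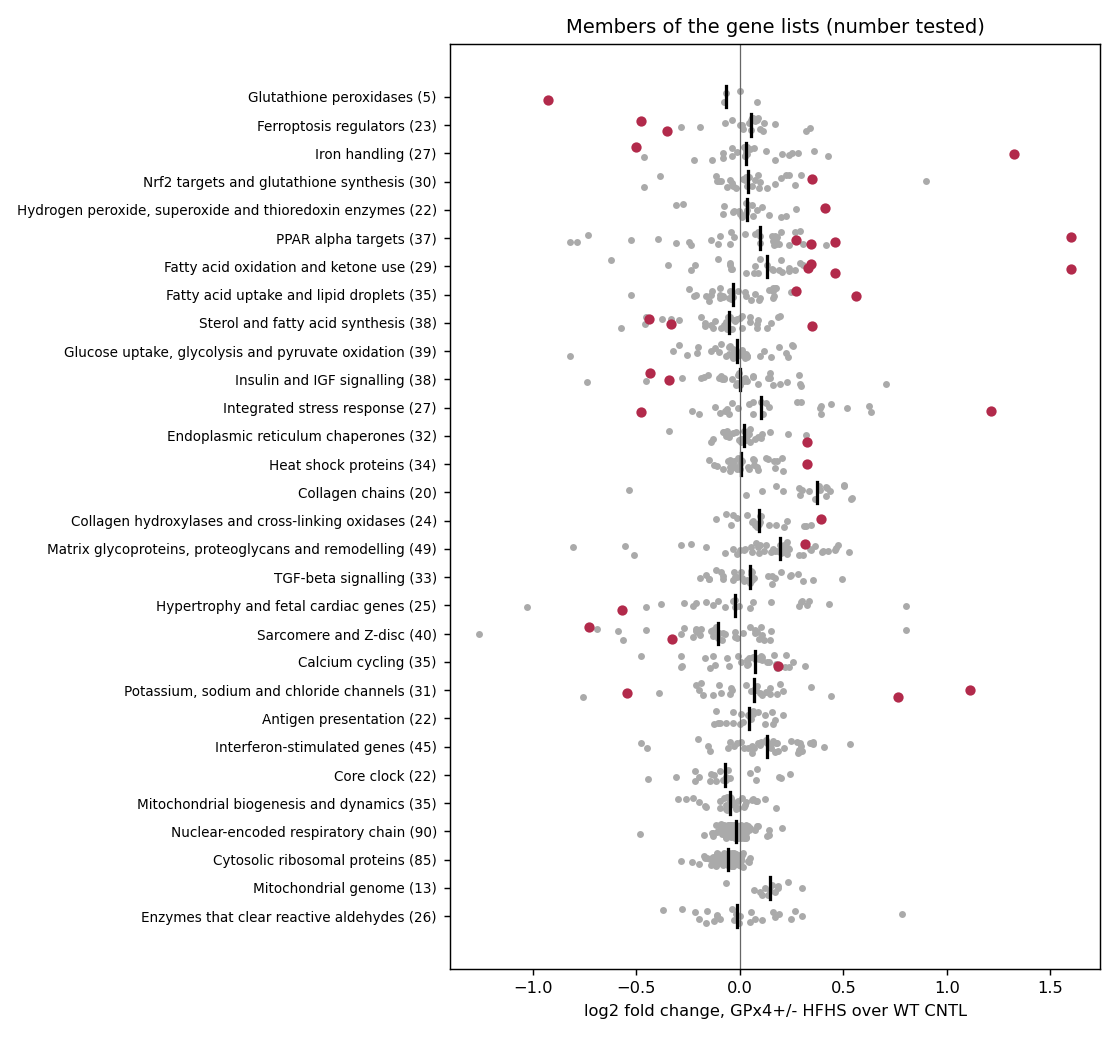
Log2 fold change of GPx4+/- HFHS over WT CNTL for the tested members of 30 gene lists, with 1 point per gene, red where the adjusted limma p was under 0.05, and a black bar at the median of the list. The number tested is in parentheses. The collagen chains lie mostly to the right with no red point, and the red points of fatty acid oxidation all lie to the right.

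Of the 31 pathway lists, the qRT-PCR targets included, 20 held a called gene, and 112 of the 141 called genes were on none of them. Antigen presentation, interferon-stimulated genes, glucose use, TGF-beta signaling, the core clock, mitochondrial biogenesis, the nuclear-encoded respiratory chain, cytosolic ribosomal proteins, the mitochondrial genome and aldehyde-clearing enzymes gave 0 calls in limma, as did all 14 marker lists. At an unadjusted p under 0.05 there were 8 of 39 glucose genes, 4 of 33 in TGF-beta signaling, 4 of 22 clock genes, 5 of 35 in mitochondrial biogenesis, 3 of 90 in the respiratory chain, 7 of 26 aldehyde-clearing enzymes and 1 of 22 in antigen presentation, against 14.5% of all genes. Interferon-stimulated genes were positive in 36 of 45 with a median of 0.13 (0.07 without GPx4+/- HFHS replicate 3 and on TPM as deposited, 0.20 without GPx4+/- HFHS replicate 4), 5 of them at an unadjusted p under 0.05. Ribosomal protein genes were negative in 74 of 85 with a median of -0.06 (-0.10 without GPx4+/- HFHS replicate 4 and -0.13 on TPM as deposited), 9 of them at an unadjusted p under 0.05. The 13 mitochondrial protein genes had a median of 0.15 with 2 at an unadjusted p under 0.05. This median was 0.05 without GPx4+/- HFHS replicate 2, 0.26 without replicate 1, 0.07 on TPM as deposited and 0.00 with quantile normalization.

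Many of the genes with the smallest p lay outside the lists. Crybb1, a beta crystallin, was at 2.49, 1.59, 2.35, 2.19 and 2.87 in WT CNTL and 5.32, 4.51, 5.12, 3.91 and 4.43 in GPx4+/- HFHS (log2 fold change 0.89, SE 0.12; limma adjusted p = 0.00100). Nacc2, a transcriptional repressor, Aplp2, a relative of the amyloid precursor protein, and Vwa8, a mitochondrial ATPase, rose by log2 fold changes of 0.48, 0.34 and 0.49, and Frmpd3 and Nkain1 by 0.74 and 0.82. The adjusted p of these 5 lay between 0.00139 and 0.00349 in limma, and none overlapped between the groups. BC048679 rose from 0.476 ± 0.410 to 1.59 ± 0.549 (SD, n = 5; log2 fold change 1.14, adjusted p = 0.0399 from limma), with overlap and a call in 2 of the 10 fits without 1 mouse. With means of 0.476 in WT CNTL and 0.285 in GPx4+/- CNTL, BC048679 also passed the filter only through the HFHS groups. Prkab2, a regulatory subunit of the energy sensor AMPK, was at 12.5, 11.6, 13.1, 12.2 and 15.8 against 20.2, 18.2, 16.7, 19.8 and 16.4 (log2 fold change 0.47, adjusted p = 0.00598 from limma); it was chosen after its values were seen.

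In the lower direction, Sra1, whose transcript acts as a coactivator of steroid receptors, fell from 47.6 ± 3.82 to 34.6 ± 1.87 (SD, n = 5; log2 fold change -0.45, adjusted p = 0.000837 from limma). Ddt, a relative of the cytokine MIF, fell from 76.0 ± 2.5 to 55.4 ± 3.46, and Cdkl1, a kinase related to cyclin-dependent kinases, from 8.62 ± 1.43 to 4.57 ± 0.217 (SD, n = 5), with log2 fold changes of -0.46 and -0.83 (adjusted p = 0.00269 and 0.00393 from limma). Tob1, an antiproliferative protein that promotes mRNA deadenylation, fell by 0.32 on the log2 scale (adjusted p = 0.0107 from limma). Scgb1c1, a secretoglobin, fell by 0.83 (adjusted p = 0.0419 from limma) with overlap and was called in 2 of the 10 fits without 1 mouse.

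The X chromosome had the highest share of called genes, 10 of 346 (2.89%), 3 higher and 7 lower, against 1.18% of all genes, followed by chromosome 10 with 14 of 578 (2.42%). The lower X-linked genes were Rtl8b, Rtl8a, Rbmx, Rragb, Armcx4, Tceal8 and Tspyl2, of which Rtl8a, Tceal8 and Tspyl2 were named after their values were seen. Rtl8b and Rtl8a, which derive from a retrotransposon and are close paralogs whose reads may not be separable, were at 26.5 ± 1.31 and 20.4 ± 1.28, and at 27.1 ± 1.24 and 22.1 ± 1.06 (SD, n = 5), in WT CNTL and GPx4+/- HFHS. Rbmx, an RNA binding protein of splicing, was at 13.6, 14.2, 13.3, 12.5 and 13.8 against 10.8, 11.0, 10.8, 11.1 and 10.2 (log2 fold change -0.31, adjusted p = 0.00433 from limma). Rragb, a GTPase that links amino acids to mTORC1, was at 1.35, 1.60, 1.62, 2.22 and 1.47 against 0.718, 0.839, 0.629, 0.695 and 0.755 (log2 fold change -0.80, adjusted p = 0.0107 from limma). Armcx4 fell by 0.80 on the log2 scale (adjusted p = 0.0177 from limma), a call lost without GPx4+/- HFHS replicate 1. All 7 did not overlap between the groups, and their genotype differences lay between -0.09 and 0.08.

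Tested singly, 57 of 23328 transcripts passed in limma, 35 higher and 22 lower, and 12 of them belonged to genes that were not called. Hopx, a cardiac homeodomain protein, is an example. Its transcript Hopx-201 rose from 81.2 ± 8.35 to 112 ± 10.9 (SD, n = 5; log2 fold change 0.46, adjusted p = 0.0375 from limma) and Hopx-202 was at 102 ± 11.2 and 77.1 ± 4.44 (SD, n = 5; adjusted p = 0.183 from limma), so that the gene sum differed by 0.05 on the log2 scale. Dhdds, which makes the dolichol precursor for protein glycosylation, was called as a gene (log2 fold change 0.37, adjusted p = 0.00866 from limma). Its largest difference was in Dhdds-207, a transcript without a coding sequence that rose from 3.99 ± 0.586 to 9.43 ± 1.60 (SD, n = 5; log2 fold change 1.14, adjusted p = 0.00747 from limma), while the coding Dhdds-201 was at 4.56 ± 0.784 and 3.67 ± 0.969 and the coding Dhdds-209 at 4.73 ± 0.643 and 5.81 ± 0.999 (SD, n = 5; limma adjusted p = 0.748 and 0.593). Hopx and Dhdds were chosen after their values were seen, and the split between transcripts of 1 gene is an estimate from shared reads.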

How the data were processed

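The authors deposited TPM per transcript and library. Per the labels, stranded polyA libraries were quantified against GRCm38, and the submitters' processing notes name kallisto 0.43.1 and sleuth 0.30.0. Transcripts were matched to genes of GENCODE M21 (116772 of 119215) and summed, and the sums were divided by median-ratio factors over 11879 genes. Because TPM are not counts, limma 3.58.1 (R 4.3.3) was fitted with a mean-variance trend on log2(scaled TPM + 0.5) to 20 mice in 4 groups, for 11984 genes with a mean of at least 1 over 25 mice, with Benjamini-Hochberg adjustment. Fold changes on this scale understate the change of low genes. A gene low in some groups can pass the filter through the groups where it is higher, as Kcnj14, BC048679, Gm9855 and Gm4924 did. Replicates are separate mice. The single value of Gpx4 was compared by exact permutation (scipy 1.17.1). On simulated data with 200 changed genes among 11984, 91.5% were recovered at a log2 change of 1, 72.5% at 0.5 and 10.5% at 0.25. The simulated noise was independent between genes and mice and held no mouse that stood apart, so these shares may not hold for the real mice. Named genes are Gpx4, per direction the 12 coding genes with the smallest p and the 6 with the largest change, up to 3 called genes per list, 6 for departure and the qRT-PCR targets. Any other gene named was chosen after its values were seen. Members, lists and tests were chosen with earlier results of these data known. The alternatives were other pseudocounts, filters and scalings, single transcripts, a replicate block, array weights, other sets of mice and mice left out. The fit without both mice high in Alb was added after seeing the data. The values of 1 gene are not reported here.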

Additional observations from a re-analysis of the deposited data

Results flagged for a closer look

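A value was flagged where 1 mouse of a group of 5 stood far from the other 4, measured as its gap to the nearest mouse over the whole range of the group (critical value 0.710 for 5 samples). Of 168 sets of 5 values searched in WT CNTL and GPx4+/- HFHS, 19 were flagged, and chance flags about 1 in 20. Of these, 7 were marker sums and 12 were single genes. In WT CNTL, replicate 3 was high for the atrial markers (gap 0.985), the endocardium and vein markers (0.902), the fibroblast markers (0.898) and the valve and cartilage-like markers (0.781), and low for the pericyte markers (0.857). GPx4+/- HFHS replicate 4 was high for the atrial markers (0.930) and the fibroblast markers (0.725). The same WT CNTL mouse was high for Mrtfa, at 2.07 against 1.62 to 1.65 (0.948), and low for Nos2, at 2.37 against 3.98 to 4.22 (0.868), and 0610009B22Rik, at 14.5 against 17.9 to 19.1 (0.747).

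WT CNTL replicate 5 was high for Cpt2, at 153 against 130 to 133 (0.847), for Vwa8, at 79.8 against 67.1 to 70.0 (0.772), and for 1190007I07Rik, at 21.1 against 16.6 to 17.3 (0.846). WT CNTL replicate 1 was high for Sparcl1, at 156 against 130 to 137 (0.729), and BC048679, at 1.19 against 0.194 to 0.449 (0.743). In GPx4+/- HFHS, replicate 2 was high for Cat, at 183 against 146 to 155 (0.750), and low for Calm3, at 73.3 against 80.9 to 83.1 (0.771). Replicate 1 was high for Scgb1c1, at 15.6 against 9.00 to 10.7 (0.744), and replicate 3 for Fth1, at 1550 against 1460 to 1480 (0.728).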

How the results depend on the processing

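The number of genes called was 141 and lay between 48 and 154 when 1 mouse was left out. It was 83 with no filter on low values, 89 on TPM as deposited, 57 for single transcripts, 307 with array weights, 71 without both mice high in atrial genes and 33 without both mice high in Alb, and the causes were not tested. On TPM as deposited 19 were higher and 70 lower (21.3% higher against 53.2%), with the median of all genes at -0.07. In every alternative on genes, each of the 141 genes that was tested kept its direction. The called genes were chosen on these mice, and the alternatives reuse most of the same mice, so a kept direction is weak evidence. Gpx4 stayed between -1.0 and -0.90 in all 22 alternatives (highest adjusted p = 0.000235 from limma). Departure from additivity had 0 genes in 20 of 22 alternatives and 1 without WT CNTL replicate 3 and without both mice high in atrial genes, in each case 0610009B22Rik. Of the named genes that passed, other than Gpx4, 842 of 1089 values stayed past the threshold, 247 did not, and 0 reversed. Signs reversed for genes that had not passed. Txn2 was -0.064 as deposited, -0.022 with quantile normalization, -0.001 with array weights, -0.039 and -0.020 without the atrial and the Alb pair, and -0.027 to 0.034 without 1 mouse. Tgfb1 was -0.011 as deposited and -0.012 to 0.096 without 1 mouse, Nos2 was -0.066 to 0.152 and Fth1 -0.059 to 0.015. Medians of lists near 0 (among them iron handling, ferroptosis, Nrf2, antioxidant enzymes, TGF-beta, chaperones) turned negative on TPM as deposited.

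The replicate numbers were checked for pairing: deviations of same-numbered mice correlated between -0.228 and 0.064, and 0 of 5 mice correlated best with their own number, so the numbers were not taken to pair mice. With the replicate block 97 genes were called, 92 of them among the 141. Read depth is not kept in TPM and limits low genes such as Gm9855 and Kcnj14 by an unknown amount.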
